A study of Homo sapiens with 3 samples.

Results

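Ion channel genes were compared between 3 libraries of A375SM, a human melanoma cell line selected for metastasis from A375. All rows of the deposited count table whose gene symbol begins with KCN followed by letters and a digit, or names a calcium channel (CACNA, CACNB, CACNG) or sodium channel (SCN, A or B) subunit, were taken, and antisense and intronic transcripts (22 rows) were left out. That left 137 of the 24424 genes in the table. The groups were a PRAME knockdown (shPRAME), a BAP1 knockdown (shBAP1) and a control labelled wild type (shEmpty), with 1 library each. All 3 populations had been infected with a lentiviral vector carrying a green fluorescent reporter and selected for the reporter, so the control shares the vector and the selection. The labels differ on whether shEmpty carried a non-targeting hairpin or an empty vector. Each vector is represented by 1 stable population, so off-target effects of a hairpin cannot be told apart from lowered PRAME or BAP1.

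Voltage-gated potassium, calcium and sodium channels open when the membrane potential changes. Each is built from pore-forming alpha subunits, which auxiliary subunits assist in assembly, transport to the surface and gating. In melanoma and other tumour cells, potassium channels set the membrane potential that drives calcium entry, and calcium-activated potassium channels link the 2 ions. The symbol pattern is wider than the name of the family. It also takes the 16 inward rectifiers (KCNJ) and the 15 leak channels (KCNK), which are not gated by a voltage sensor, and 2 non-coding transcripts of the KCNQ1 locus, together 33 genes. The 8 calcium- or sodium-activated potassium channel genes are not among these 33, although the KCNN channels are opened by calcium and not by voltage.

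The libraries held 18456328 counts (shPRAME), 14181829 counts (shBAP1) and 19430130 counts (shEmpty). Levels are CPM, the counts of a gene per 1000000 counts of its library after correction with TMM factors. Levels of different genes are compared per kilobase of the longest annotated coding transcript. Sums and shares of counts are the exception and are not corrected for length. There were no replicates, so differences are unchecked between samples and no p-value is given. The words higher and lower are used of ratios that reached 2-fold with an exact 95% counting interval (in parentheses) that excluded 1. These calls describe the sequenced libraries only. Intervals and floors cover counting error and not variation between cultures. A count of 0 allows up to 3 counts, or 0.164 CPM in shPRAME, 0.202 CPM in shBAP1 and 0.160 CPM in shEmpty. Genes averaging at least 50 counts over the libraries are termed measured (11956 genes). PRAME was at 108 CPM in shPRAME, against 327 CPM in shEmpty, and BAP1 was at 35.2 CPM in shBAP1, against 100.0 CPM in shEmpty. Of 8 melanocyte lineage markers 6 were measured, and SOX10, MITF and S100B had at least 790 counts in each library. TYR had no count in shPRAME, TYRP1 had none in shEmpty, and PMEL and MLANA were below the count minimum. None of the endothelial, immune, keratinocyte and epithelial markers was measured, and each of these lists summed to at most 3.94 CPM in any library.

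Most channel genes were near silent in these cells. Of the 137 members, 29 had no count in any library, 61 had a mean count below 10, 19 lay between 10 and 50, and 28 were measured. CACNA2D3, KCNA4 and SCN2A reached the minimum through 1 library, since their other 2 libraries averaged fewer than 50 counts. The 135 protein-coding members summed to 609 CPM in shPRAME, 334 CPM in shBAP1 and 475 CPM in shEmpty. By counts, which favour long transcripts, a large part of this pool came from a pair of calcium-activated potassium channel genes, less so in shBAP1. KCNN4, the intermediate-conductance channel, made up 27.4% of the pool in shPRAME (Wilson 95% interval 26.6% to 28.3%), 13.5% in shBAP1 (12.6% to 14.5%) and 11.6% in shEmpty (10.9% to 12.3%). KCNMA1, the pore of the large-conductance BK channel, made up 17.1% in shPRAME (16.4% to 17.8%), 9.08% in shBAP1 (8.31% to 9.91%) and 23.8% in shEmpty (23.0% to 24.7%). Without these 2 genes the sums were 338 CPM in shPRAME, 259 CPM in shBAP1 and 307 CPM in shEmpty. Per kilobase, KCNN4 was the highest member in each library, at 74.4 CPM per kilobase in shPRAME, 20.1 in shBAP1 and 24.5 in shEmpty. On that scale KCNMA1, with its long transcript, was at 8.60 in shPRAME, 2.51 in shBAP1 and 9.38 in shEmpty. KCNG1 stood above it in each library, at 12.4, 8.59 and 21.2.

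**Figure D1:**
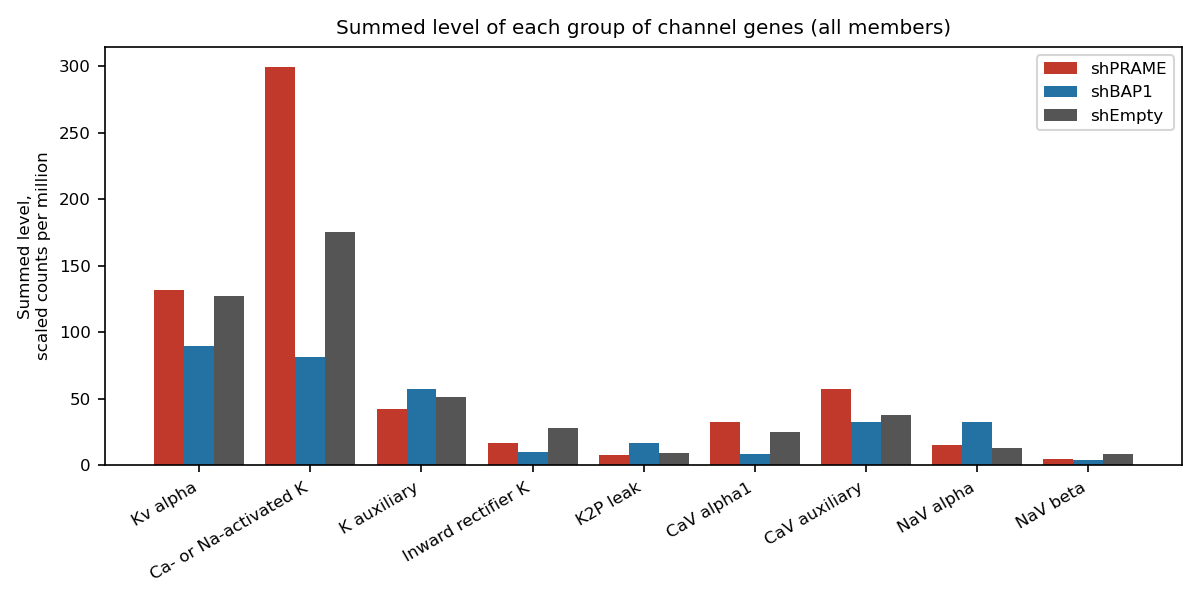
Summed level in CPM (vertical axis) of all members of each group of channel genes in shPRAME, shBAP1 and shEmpty, with 1 library per bar and the non-coding transcripts left out. The calcium- or sodium-activated potassium channels reach 299 CPM in shPRAME, 81.6 CPM in shBAP1 and 176 CPM in shEmpty.

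The channel genes differed from the control in opposite balance in the 2 knockdown libraries. In shPRAME, 8 of the 28 measured members were higher than in shEmpty and 3 were lower. Over all measured genes 10.2% were higher and 9.08% were lower in that comparison, against 28.6% and 10.7% of the members. In shBAP1, 3 members were higher and 8 were lower, which is 10.7% and 28.6% of the members, against 5.53% higher and 8.56% lower over all measured genes. The median log2 ratio of the measured members was 0.25 in shPRAME and -0.46 in shBAP1, beside medians over all measured genes of -0.06 and -0.03. In shPRAME 15 of the members' log2 ratios were positive and 13 negative, and in shBAP1 10 were positive and 18 negative. CACNA2D3, KCNA4 and SCN2A are among the 8 higher in shPRAME. KCNA4 is also among the 8 lower, and SCN2A among the 3 higher, in shBAP1. These genes reached the count minimum through 1 library, so their place in these counts supports nothing. Both comparisons use the same shEmpty library, so a low or high value there moves both ratios of a gene. Directly between the knockdowns, 12 members were higher in shPRAME than in shBAP1 and 6 were lower, where 14.2% and 10.9% of all measured genes were. CACNA2D3 and KCNA4 are among these 12 and SCN2A is among these 6, and their place there supports nothing either. 7 measured members passed in none of the 3 comparisons, namely CACNA2D2, CACNB3, KCNJ14, KCNAB2, KCNIP3, KCNMB3 and KCNQ5.

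**Figure D2:**
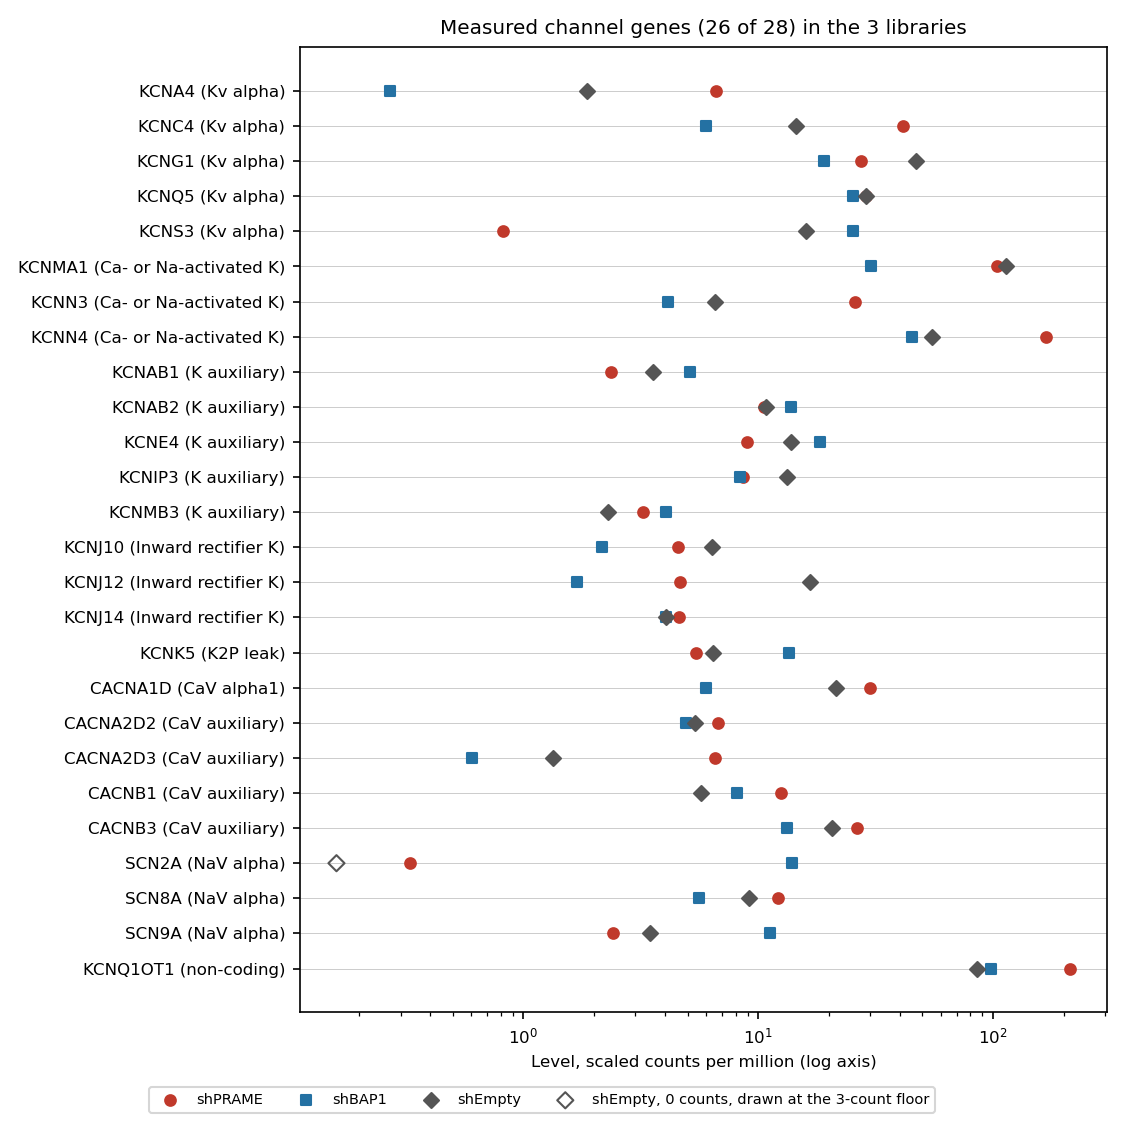
Level in CPM (horizontal log axis) of 26 of the 28 measured members, with 1 point per library and an open symbol where a library had 0 counts. Of the genes drawn, 12 are highest in shPRAME, 8 in shBAP1 and 6 in shEmpty, and KCNS3, SCN2A and KCNA4 span the widest ranges.

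4 members are shown by their promoters, chosen after their values were seen. SCN2A and KCNS3 have the widest ranges between libraries, and KCNN4 (higher in shPRAME) and KCNMA1 (lower in shBAP1) have the most counts of the protein-coding members in each library, though other members differed from shEmpty by larger folds (KCNJ12 was 9.82-fold lower in shBAP1 and CACNA2D3 4.92-fold higher in shPRAME). Their promoters, from 250 bases before to 50 bases after the RefSeq gene start (assembly GRCh38.p14, read 5′ to 3′ on the gene's strand), are printed to show how unlike these start regions are. They lie at chr2:165239164-165239463 on the plus strand (SCN2A), chr2:17877597-17877896 on the plus strand (KCNS3), chr19:43780924-43781223 on the minus strand (KCNN4) and chr10:77637759-77638058 on the minus strand (KCNMA1). Capitals mark matches on either strand to GGGCGG (the GC box), CACGTG (the E-box), TGANTCA (the AP-1 site) or TATAAA (the TATA box).
SCN2A: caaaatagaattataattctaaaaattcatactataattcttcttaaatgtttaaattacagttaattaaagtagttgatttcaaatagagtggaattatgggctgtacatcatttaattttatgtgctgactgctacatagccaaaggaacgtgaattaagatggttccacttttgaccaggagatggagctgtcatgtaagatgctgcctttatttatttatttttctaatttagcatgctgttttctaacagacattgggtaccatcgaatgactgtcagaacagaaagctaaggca
KCNS3: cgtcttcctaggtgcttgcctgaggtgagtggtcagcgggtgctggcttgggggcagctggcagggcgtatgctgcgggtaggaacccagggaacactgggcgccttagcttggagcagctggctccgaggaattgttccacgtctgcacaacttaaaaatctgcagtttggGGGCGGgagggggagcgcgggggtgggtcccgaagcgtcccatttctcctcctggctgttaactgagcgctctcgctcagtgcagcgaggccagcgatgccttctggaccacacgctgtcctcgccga
KCNN4: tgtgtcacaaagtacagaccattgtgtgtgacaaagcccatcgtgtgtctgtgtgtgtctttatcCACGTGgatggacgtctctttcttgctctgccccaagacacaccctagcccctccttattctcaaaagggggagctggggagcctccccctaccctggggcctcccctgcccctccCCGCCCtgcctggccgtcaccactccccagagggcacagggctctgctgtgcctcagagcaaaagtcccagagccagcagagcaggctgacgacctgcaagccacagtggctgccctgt
KCNMA1: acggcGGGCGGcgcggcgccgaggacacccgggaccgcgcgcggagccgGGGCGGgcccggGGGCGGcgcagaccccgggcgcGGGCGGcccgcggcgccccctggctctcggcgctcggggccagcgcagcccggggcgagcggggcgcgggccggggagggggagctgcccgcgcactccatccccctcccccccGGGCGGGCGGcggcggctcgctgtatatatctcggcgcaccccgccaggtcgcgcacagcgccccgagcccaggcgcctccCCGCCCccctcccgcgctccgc
The SCN2A window is 31.7% G and C with 2 CG dinucleotides and no match, whereas the KCNMA1 window is 85.7% G and C with 54 CG dinucleotides and 7 GC boxes, some overlapping. The KCNS3 window has 19 CG dinucleotides and 1 GC box, and the KCNN4 window has 6 CG dinucleotides, 1 GC box and 1 E-box. A promoter was found by symbol for 98 members and 22 measured members. A GC box stood in 61 of the 98 windows (62.2%) and in 17 of the 22 (77.3%), against 44.6% of all 27305 promoters. The 27305 were not limited to measured genes, so the share among the 22 has no matched comparison. An AP-1 site stood in 6 of the 98 windows (6.12%) and in none of the 22, against 7.76% of all. A match describes the letters of the window and is not a binding site.

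Of the calcium- or sodium-activated potassium channels 3 were measured. KCNN3 and KCNN4 were higher in shPRAME than in shEmpty, and the BK pore gene KCNMA1 was lower in shBAP1. The other KCNN genes were below the count minimum, with 18 counts in shPRAME, 9 in shBAP1 and 5 in shEmpty for KCNN1, and 3, 3 and 7 counts in the same libraries for KCNN2. KCNN4 had 3054 counts (167 CPM) in shPRAME, 669 counts (45.1 CPM) in shBAP1 and 1030 counts (55.0 CPM) in shEmpty. The shPRAME library stood above both others, and the ratio to shEmpty was 3.04-fold (2.83 to 3.26). KCNN3, a small-conductance channel, had 471 counts (25.8 CPM) in shPRAME, 61 counts (4.11 CPM) in shBAP1 and 123 counts (6.56 CPM) in shEmpty, and was 3.92-fold higher in shPRAME than in shEmpty (3.21 to 4.83). KCNMA1 had 1899 counts (104 CPM) in shPRAME, 450 counts (30.3 CPM) in shBAP1 and 2121 counts (113 CPM) in shEmpty. It was low in shBAP1 only, 3.73-fold below shEmpty (3.37 to 4.14), and its shPRAME ratio was 0.918 (0.862 to 0.977), within the 2-fold limit. The other BK subunits were scarce. KCNMB3, a beta subunit, had 59 counts in shPRAME, 60 in shBAP1 and 43 in shEmpty and passed in no comparison. KCNMB4, another beta subunit below the count minimum, had 50 counts in shPRAME, 8 in shBAP1 and 25 in shEmpty. LRRC26, a gamma subunit that lets BK channels open at rest, had no count in any library, whereas LRRC55, another gamma subunit below the count minimum, had 36 counts in shPRAME and none in shBAP1 or shEmpty (chosen after its values were seen). Of the sodium-activated channels, KCNT2 (chosen after its values were seen) had 24 counts in shPRAME, 13 in shBAP1 and 1 in shEmpty.

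The pore-forming voltage-gated potassium channels (Kv alpha) were the largest group, with 40 genes, of which 10 had no count anywhere and 6 were measured. In shPRAME 2 were higher and 1 lower than in shEmpty, where 10.2% and 9.08% of all measured genes were. In shBAP1 4 were lower and none higher, where 8.56% of all measured genes were lower and 5.53% higher. KCNA4, 1 of the 2 and 1 of the 4, reached the count minimum only through shPRAME, so its place in these counts supports nothing. KCNC4, a fast-inactivating channel of the Kv3 family, had 753 counts (41.2 CPM) in shPRAME, 89 counts (5.995 CPM) in shBAP1 and 272 counts (14.5 CPM) in shEmpty. It was 2.84-fold higher in shPRAME (2.47 to 3.27) and 2.42-fold lower in shBAP1 (1.90 to 3.11) than in shEmpty. KCNA4, which forms a transient A-type current, had 121 counts (6.62 CPM) in shPRAME, 4 counts (0.269 CPM) in shBAP1 and 35 counts (1.87 CPM) in shEmpty. The ratios to shEmpty were 3.54-fold higher in shPRAME (2.41 to 5.32) and 6.93-fold lower in shBAP1 (2.48 to 26.9). KCNQ5, of the family that carries the neuronal M current, passed in no comparison, with 28.6 CPM in shPRAME, 25.2 CPM in shBAP1 and 28.7 CPM in shEmpty.

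2 electrically silent Kv subunits were measured and moved differently. KCNG1 and KCNS3 form no channel alone and are known to modify other Kv alpha subunits with which they assemble. KCNS3 had 15 counts (0.820 CPM) in shPRAME, 376 counts (25.3 CPM) in shBAP1 and 299 counts (15.96 CPM) in shEmpty. It was 19.5-fold lower in shPRAME than in shEmpty (11.6 to 35.2) and 30.9-fold lower than in shBAP1 (18.5 to 55.7), while shBAP1 over shEmpty was 1.59 (1.36 to 1.85). KCNG1, at 21.2 CPM per kilobase second to KCNN4 in shEmpty, had 500 counts (27.3 CPM) in shPRAME, 282 counts (19.0 CPM) in shBAP1 and 878 counts (46.9 CPM) in shEmpty. It was 2.47-fold lower in shBAP1 (2.15 to 2.83), and its shPRAME ratio was 0.584 (0.522 to 0.652). Another silent subunit, KCNG3, lay below the count minimum and was chosen after its values were seen. It had 8 counts in shPRAME, 48 in shBAP1 and 44 in shEmpty, low in the same library as KCNS3. Other silent subunits below the minimum did not share this. KCNF1 had 22 counts in shPRAME, 0 in shBAP1 and 3 in shEmpty. KCNS2 had 21, 2 and 18 counts in the same libraries, and KCNV2 had 7, 9 and 11.

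**Figure D3:**
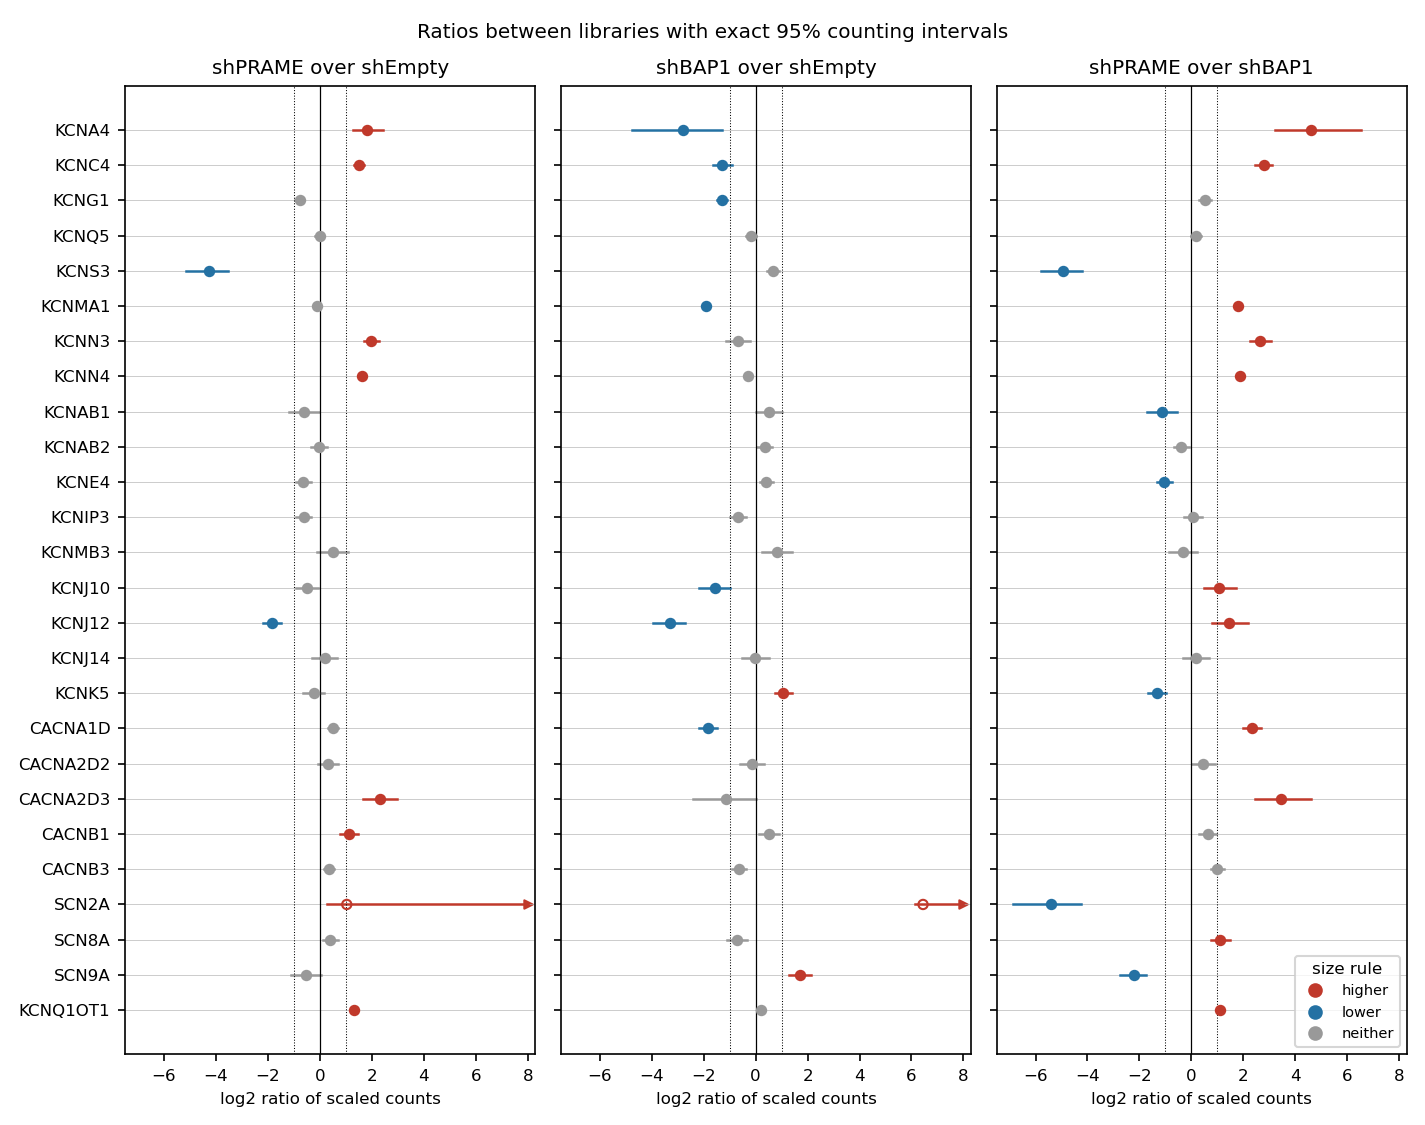
log2 ratio of scaled counts (horizontal axes) of 26 of the 28 measured members in shPRAME over shEmpty, shBAP1 over shEmpty and shPRAME over shBAP1, with bars for the exact 95% counting interval and dotted lines at 2-fold. Open circles are bounds where shEmpty had 0 counts and arrows mark intervals without an upper end; of the genes drawn, 11 are higher and 6 lower in shPRAME than in shBAP1.

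None of the 5 measured auxiliary subunits of potassium channels passed against shEmpty in either knockdown. KCNE4, an inhibitory partner of KCNQ1, had 163 counts (8.92 CPM) in shPRAME, 273 counts (18.4 CPM) in shBAP1 and 259 counts (13.8 CPM) in shEmpty. KCNAB1, a beta subunit of Kv1 channels, had 43 counts (2.35 CPM) in shPRAME, 76 counts (5.12 CPM) in shBAP1 and 67 counts (3.58 CPM) in shEmpty. Both were lower in shPRAME than in shBAP1, KCNE4 by 2.06-fold (1.69 to 2.52) and KCNAB1 by 2.18-fold (1.48 to 3.24). KCNIP3, which binds Kv4 channels and is also known as a calcium-dependent repressor, was at 8.64 CPM in shPRAME, 8.35 CPM in shBAP1 and 13.3 CPM in shEmpty.

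The inward rectifiers, which hold the membrane near the potassium equilibrium potential, included 3 measured genes. KCNJ12 had 85 counts (4.65 CPM) in shPRAME, 25 counts (1.68 CPM) in shBAP1 and 310 counts (16.5 CPM) in shEmpty. It was lower than shEmpty in both, by 3.56-fold in shPRAME (2.79 to 4.58) and 9.82-fold in shBAP1 (6.53 to 15.4). Its near-identical copy KCNJ18 had 8 counts in shPRAME, 2 in shBAP1 and 0 in shEmpty, and reads could be split between them, so both values are uncertain. KCNJ10 had 83 counts (4.54 CPM) in shPRAME, 32 counts (2.16 CPM) in shBAP1 and 119 counts (6.35 CPM) in shEmpty, 2.95-fold lower in shBAP1 (1.98 to 4.50). Of the leak channels only KCNK5, an alkaline-sensitive channel, was measured. It had 99 counts (5.41 CPM) in shPRAME, 200 counts (13.5 CPM) in shBAP1 and 120 counts (6.40 CPM) in shEmpty, and was 2.10-fold higher in shBAP1 than in shEmpty (1.67 to 2.66). That call ended with a pseudocount of 1 CPM.

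Among calcium channels, 1 of 10 pore-forming genes was measured. CACNA1D, an L-type channel, had 548 counts (29.97 CPM) in shPRAME, 89 counts (5.995 CPM) in shBAP1 and 400 counts (21.3 CPM) in shEmpty. It was low in shBAP1, 3.56-fold below shEmpty (2.82 to 4.53), and its shPRAME ratio was 1.40 (1.23 to 1.60). Another L-type gene, CACNA1C, lay below the mean count minimum. It had 3 counts in shPRAME, 7 in shBAP1 and 50 in shEmpty, so both knockdown libraries were low, at ratios of 0.0615 (0.0123 to 0.190) and 0.177 (0.0676 to 0.392).

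Of 16 auxiliary calcium channel genes 4 were measured, 2 of them higher in shPRAME and none passing in shBAP1. Over all measured genes 10.2% were higher in shPRAME, and in shBAP1 5.53% were higher and 8.56% lower. CACNA2D3, an extracellular alpha2-delta subunit that raises channel density at the surface, had 120 counts (6.56 CPM) in shPRAME, 9 counts (0.606 CPM) in shBAP1 and 25 counts (1.33 CPM) in shEmpty. It was 4.92-fold higher in shPRAME (3.18 to 7.90). CACNA2D3 reached the count minimum only through shPRAME, the library where it was high, so its count among the higher genes supports nothing. CACNB1, a cytoplasmic beta subunit, had 228 counts (12.5 CPM) in shPRAME, 120 counts (8.08 CPM) in shBAP1 and 107 counts (5.71 CPM) in shEmpty, 2.18-fold higher in shPRAME (1.73 to 2.77). CACNB3 was the highest calcium channel subunit per kilobase in each library, at 9.78 CPM per kilobase in shPRAME, 4.92 in shBAP1 and 7.66 in shEmpty. Below the minimum, and chosen after their values were seen, CACNB4 had 5 counts in shPRAME, 2 in shBAP1 and 27 in shEmpty, while CACNA2D4 had 6 counts in shPRAME, 48 in shBAP1 and 12 in shEmpty.

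The sodium channel genes held the largest single difference among the measured members, that of SCN2A. That gene reached the count minimum only through shBAP1, the library where it was high, so this rank supports nothing. SCN2A, a channel of brain axons, had 6 counts (0.328 CPM) in shPRAME, 207 counts (13.9 CPM) in shBAP1 and none in shEmpty. Against the floor of 3 counts it was 87.1-fold higher in shBAP1 than in shEmpty, with a lower interval end of 70.2. The 6 counts in shPRAME lie 2.05-fold above the same floor, with a lower interval end of 1.21, and that call ended with a pseudocount of 1 CPM. SCN2A made up 4.18% of the channel pool in shBAP1 (3.65% to 4.77%). SCN9A, the channel of pain-sensing neurons, had 44 counts (2.41 CPM) in shPRAME, 167 counts (11.2 CPM) in shBAP1 and 65 counts (3.47 CPM) in shEmpty, 3.24-fold higher in shBAP1 (2.42 to 4.39). SCN8A went the other way between the knockdowns, with 12.1 CPM in shPRAME, 5.59 CPM in shBAP1 and 9.13 CPM in shEmpty, and was 2.16-fold higher in shPRAME than in shBAP1 (1.67 to 2.82). SCN4B, a beta subunit that shapes gating, lay below the count minimum. It was chosen after its values were seen and had 2 counts in shPRAME, none in shBAP1 and 27 in shEmpty.

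SCN2A and SCN9A lie in a cluster of 5 sodium channel genes on chromosome 2, and the neighbouring genes were listed after these values were seen. The gene order is that of the RefSeq annotation of GRCh38.p14, a newer assembly than that of the files. SCN3A had 10 counts in shPRAME, 15 in shBAP1 and 0 in shEmpty. SCN7A had 0 in shPRAME, 11 in shBAP1 and 4 in shEmpty, and SCN1A had no count in any library. GALNT3, a glycosyltransferase gene between SCN2A and SCN9A, lay below the count minimum. It had no count in shPRAME, 105 counts (7.07 CPM) in shBAP1 and none in shEmpty. Against the floor of 3 counts its ratio of shBAP1 to shEmpty was 44.2, with a lower interval end of 35.3. TTC21B, a cilium gene also lying between SCN2A and SCN9A, was at 30.1 CPM in shPRAME, 38.6 CPM in shBAP1 and 28.8 CPM in shEmpty. CSRNP3, between SCN2A and GALNT3, had 28 counts in shPRAME, 16 in shBAP1 and 1 in shEmpty. Further out, XIRP2 had 10 counts in shPRAME, 45 in shBAP1 and 5 in shEmpty, and GRB14 had 0 in shPRAME, 14 in shBAP1 and 2 in shEmpty. SLC38A11, next to SCN3A, ran opposite, with 204 counts in shPRAME, 5 in shBAP1 and 81 in shEmpty. COBLL1, between GRB14 and SLC38A11, was at 44.5 CPM in shPRAME, 47.6 CPM in shBAP1 and 79.7 CPM in shEmpty. Beyond XIRP2, B3GALT1 was at 9.13, 4.65 and 4.96 CPM in the same libraries, and STK39 at 19.9, 33.1 and 34.5 CPM. Not all genes of the interval were thus highest in shBAP1.

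**Figure D4:**
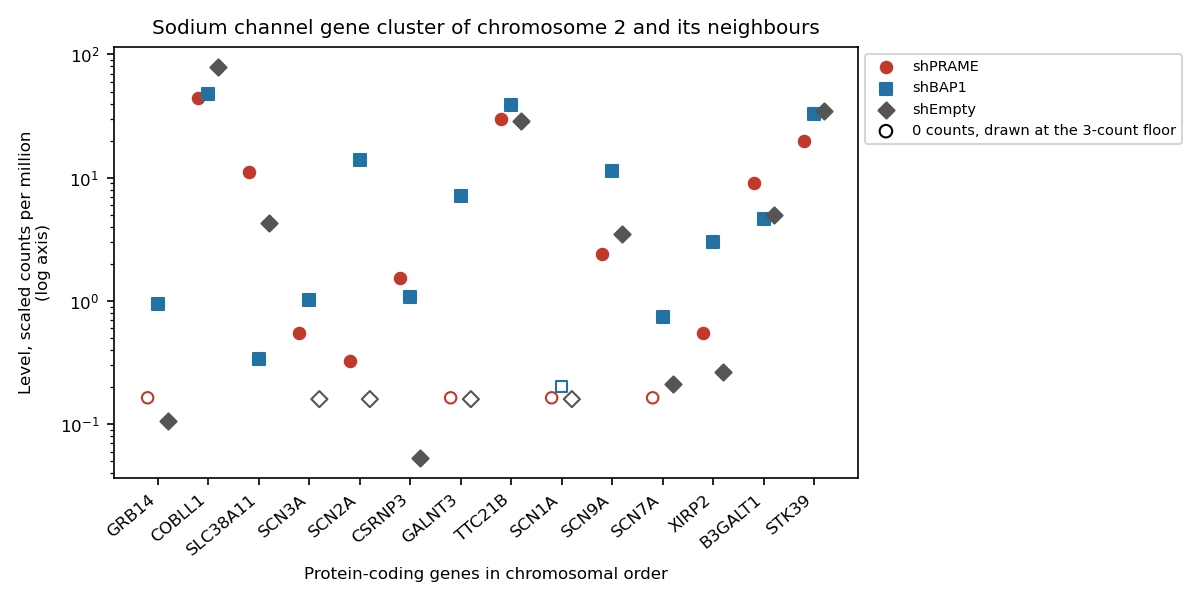
Level in CPM (vertical log axis) of protein-coding genes in their order along chromosome 2 around the sodium channel cluster, with 1 point per library and open symbols for 0 counts. SCN2A (13.9 CPM), GALNT3 (7.07 CPM) and SCN9A (11.2 CPM) stand highest in shBAP1, as do SCN3A, SCN7A, XIRP2 (3.03 CPM), GRB14 (0.943 CPM) and TTC21B (38.6 CPM). SLC38A11, CSRNP3 and B3GALT1 stand highest in shPRAME, and COBLL1 and STK39 in shEmpty.

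Of the non-coding transcripts taken by the pattern, KCNQ1OT1, an imprinted RNA transcribed antisense to KCNQ1, had 3893 counts (213 CPM) in shPRAME, 1455 counts (98.0 CPM) in shBAP1 and 1601 counts (85.4 CPM) in shEmpty. It was 2.49-fold higher in shPRAME than in shEmpty (2.35 to 2.64). KCNQ1 itself had 2 counts in shPRAME and none in shBAP1 or shEmpty. Whether counting used the strand is not given in the sources used here.

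Proteins that act on these channels were examined as a list of 34 genes outside the symbol pattern, of which 17 were measured. In shPRAME 3 were higher, 1 lower and 13 neither, with a median log2 ratio of 0.03, where 10.2% of all measured genes were higher and 9.08% lower. In shBAP1 none was higher, 5 were lower and 12 were neither, with a median of -0.64, where 5.53% of all measured genes were higher and 8.56% lower. GEM, a small GTPase that inhibits calcium channels through their beta subunits, had 11575 counts (633 CPM) in shPRAME, 172 counts (11.6 CPM) in shBAP1 and 1334 counts (71.2 CPM) in shEmpty. It was 8.89-fold higher in shPRAME (8.40 to 9.42) and 6.14-fold lower in shBAP1 (5.24 to 7.25) than in shEmpty. STAC2, an adaptor of L-type channels, had 160 counts in shPRAME, 4 in shBAP1 and 9 in shEmpty, 18.2-fold higher in shPRAME (9.36 to 40.6). It reached the count minimum only through shPRAME, the library where it was high, so its count among the higher genes supports nothing. NEDD4L, a ubiquitin ligase that removes sodium channels from the surface, was at 56.5 CPM in shPRAME, 107 CPM in shBAP1 and 139 CPM in shEmpty, 2.45-fold lower in shPRAME (2.28 to 2.64).

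The other genes lower in shBAP1 all act on sodium channels. FGF12, FGF13 and FGF14 encode intracellular fibroblast growth factor homologues that bind the channel's tail. FGF12 had 198 counts in shPRAME, 15 in shBAP1 and 86 in shEmpty, 4.54-fold lower in shBAP1 (2.61 to 8.47) and 2.36-fold higher in shPRAME (1.82 to 3.08). FGF14 had 197 counts in shPRAME, 26 in shBAP1 and 152 in shEmpty, 4.63-fold lower in shBAP1 (3.04 to 7.32). FGF13 was 3.53-fold lower in shBAP1 (2.95 to 4.25), with 1102 counts in shPRAME, 149 in shBAP1 and 664 in shEmpty. ANK3, which encodes the ankyrin that anchors sodium channels in the membrane, was at 646 CPM in shPRAME, 216 CPM in shBAP1 and 878 CPM in shEmpty, 4.06-fold lower in shBAP1 (3.91 to 4.22). FGF13 and ANK3 were named after their values were seen. In the same library the pore genes SCN2A and SCN9A were higher.

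Of 16 related cation channel genes outside the pattern 6 were measured, none passing in shPRAME and 2 lower in shBAP1, where 8.56% of all measured genes were lower. NALCN, the sodium leak channel, had 89 counts in shPRAME, 14 in shBAP1 and 80 in shEmpty, 4.53-fold lower in shBAP1 (2.55 to 8.65). HCN2, a pacemaker channel, had 81 counts in shPRAME, 16 in shBAP1 and 60 in shEmpty, 2.97-fold lower in shBAP1 (1.69 to 5.53). For both, shBAP1 and shEmpty averaged fewer than 50 counts, so the shPRAME library brought them to the minimum. UNC80, a subunit of the NALCN complex, was at 8.97 CPM in shPRAME, 5.25 CPM in shBAP1 and 5.50 CPM in shEmpty. CATSPER1, of the sperm calcium channel, was at 2.46 CPM in shPRAME, 5.39 CPM in shBAP1 and 3.10 CPM in shEmpty, and TPCN2, a channel of lysosomes and melanosomes, was at 32.2 CPM in shPRAME, 43.4 CPM in shBAP1 and 43.7 CPM in shEmpty.

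Markers of excitable, stromal and melanocytic cells differed between the libraries too, and their part in the channel results was not tested. The 8 neuronal markers summed to 279 CPM in shPRAME, 15.5 CPM in shBAP1 and 60.5 CPM in shEmpty, and all 3 measured ones (SYT1, STMN2, GAP43) were higher in shPRAME than in shEmpty, while SYT1 and GAP43 were lower in shBAP1. SYT1 (147 CPM), GAP43 (87.6 CPM) and STMN2 (41.1 CPM) gave most of the shPRAME sum. RBFOX3, SYP, SNAP25, ELAVL3 and ELAVL4 were below the count minimum. RBFOX3 had 7 counts in shPRAME, 9 in shBAP1 and 6 in shEmpty. SYP had 21, 17 and 15 counts in the same libraries, SNAP25 39, 19 and 30, and ELAVL3 2, 2 and 5. ELAVL4 had no count in shPRAME or shBAP1. The 8 muscle markers summed to 9.95 CPM in shPRAME, 2.09 CPM in shBAP1 and 2.67 CPM in shEmpty, most of it from RYR1 in shPRAME (8.48 CPM), and MYOD1, MYOG and MYH7 had no count in any library. The 6 fibroblast markers summed to 721 CPM in shPRAME, 212 CPM in shBAP1 and 41.0 CPM in shEmpty, of which COL1A2 alone gave 670 CPM in shPRAME, 170 CPM in shBAP1 and 6.35 CPM in shEmpty. Another fibroblast marker, PDGFRA, was 6.31-fold lower in shBAP1 (4.39 to 9.37). Of the 6 measured melanocyte lineage markers, none was higher and MITF and DCT were lower in shPRAME than in shEmpty, whereas TYR, TYRP1, DCT and S100B were higher and none lower in shBAP1. Within the 2-fold limit, the SOX10 ratio to shEmpty was 1.30 in shPRAME and 0.724 in shBAP1. The MITF ratio in shBAP1 was 0.770, so these regulators did not rise there with the pigment genes. DCT had 6 counts in shPRAME, 1668 in shBAP1 and 192 in shEmpty, and TYR had 0 counts in shPRAME, 573 in shBAP1 and 4 in shEmpty. The 8 listed melanocyte markers summed to 816 CPM in shPRAME, 1016 CPM in shBAP1 and 899 CPM in shEmpty. STMN2 and RYR1 (through shPRAME) and TYR and TYRP1 (through shBAP1) reached the count minimum through 1 library. A lower level in a bulk library cannot be told apart from fewer cells that express the gene.

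With a mean count of at least 10, 47 members were measured. In shPRAME 14 were higher and 7 lower than in shEmpty, where 13.4% and 9.49% of the 14202 genes measured at that limit were. In shBAP1 5 were higher and 13 lower, where 8.23% and 9.67% of all genes were. Between the knockdowns 18 were higher and 10 lower in shPRAME, where 16.6% and 12.2% of all genes were. Members added by this limit included KCND1, the pore of an A-type channel, with 43 counts in shPRAME, 4 in shBAP1 and 19 in shEmpty. KCNK6, a leak channel, had 5 counts in shPRAME, 19 in shBAP1 and 30 in shEmpty. Both were chosen after their values were seen.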

How the data were processed

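Messenger RNA of 3 A375SM populations (shPRAME, shBAP1, shEmpty) was sequenced as paired reads of 100 bases from 1 directional library each, per the labels. Whole-number read counts per gene symbol were used as deposited by the authors. The submitters' processing notes name FastQC, TopHat, Cufflinks and edgeR with hg19 (GRCh37). Neither the counting tool nor its strand setting or annotation is stated in those sources, so overlapping, antisense and paralogous genes are uncertain. No row lacked a gene name and no column was left out.

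Counts were scaled with TMM factors over the 3 libraries (edgeR 4.0.16, R 4.3.3), and ratios were taken without a pseudocount. A count of 0 was set to 3 counts and gives a bound, which leaves out the counting error of the other library. No ratio is given where both counts were at most 3. Measured genes averaged at least 50 counts. With 1 library per group no test was made. A call required a ratio of at least 2-fold and an exact 95% conditional binomial interval without 1. Transcript lengths came from GENCODE release 29 by symbol for all 137 members, and promoters and gene order from RefSeq (GRCh38.p14). In simulated data with counting error only, all genes made 4-fold different were called in the shPRAME and shBAP1 comparisons with shEmpty and in the direct one. Of the genes left unchanged, 0.00851%, 0.034% and 0.00851% were called in these 3 comparisons, in that order. Python 3.11.15, numpy 2.4.6, scipy 1.17.1, pandas 2.3.3 and matplotlib 3.10.9 were used, and DESeq2 1.42.0 for an alternative scaling.

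The members and gene lists were chosen with earlier results of these data known. Named members were up to 15 called genes per direction and comparison, ranked by the nearer end of their interval, the highest gene per length of each group, genes with at least 50 counts in 1 library and at most 3 in another, and up to 3 genes per other list. Some members that this rule names are not reported here.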

Additional observations from a re-analysis of the deposited data

How the results depend on the processing

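No paired analysis was possible because each group held 1 library. Total-count, upper-quartile and DESeq2 scaling and a pseudocount of 1 CPM turned the direction of no called member. Scaling by total count shifted the genome-wide median by 0.12 log2 in shBAP1 over shEmpty, and with each of the 3 scalings the members there stayed at 3 higher and 8 lower. The pseudocount ended 2 calls in shPRAME (SCN2A among them), of KCNK5 in shBAP1, and of KCNAB1, KCNE4, KCNJ10 and SCN8A between the knockdowns. Total-count scaling also ended that of KCNJ10 between the knockdowns, where upper-quartile and DESeq2 scaling each added CACNB3 as higher in shPRAME (13 members in place of 12). Counts of called members changed mainly with the count minimum, which sets how many members are examined (47, 12 and 108 members). In shPRAME over shEmpty they were 14 higher and 7 lower at a minimum of 10, 4 and 1 at 200, and 23 and 8 without a minimum. In shBAP1 over shEmpty they were 5 and 13 at 10, 0 and 4 at 200, and 11 and 14 without, so that the higher share of the calls was 27.3% in the reported setting, 0% at 200 and 44.0% without. In shPRAME over shBAP1 they were 18 and 10 at 10, 6 and 2 at 200, and 22 and 17 without. With the whole interval beyond 2-fold, 3 members were lower in shPRAME than in shBAP1. Without the inward rectifiers, leak channels and non-coding transcripts, 7 were higher and 2 lower in shPRAME, and 2 higher and 6 lower in shBAP1. The calcium-activated KCNN3 and KCNN4 were kept in that setting. Depth limits the genes below about 10 counts, whose intervals span several fold.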
